A study of Homo sapiens with 24 samples.

Results

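The RNA of the insoluble cytoplasm was compared with that of the soluble cytoplasm in U2OS cells treated with RK-33 and without NaAsO2. U2OS is a human osteosarcoma line, and RK-33 is a small molecule that inhibits the ATPase and helicase activity of the DEAD-box helicase DDX3. The comparison is defined by the sample labels, and it was chosen with earlier results of these data known. It used 6 of the 24 libraries of the series, 3 of the RK-33 insoluble fraction and 3 of the RK-33 soluble fraction, which come from 3 lysates. RK-33 was given at 6 µM, starting with a pre-treatment of 1 h. Ctrl cells, given 0.12% DMSO for 2 h, and cells given 500 µM NaAsO2 for 60 min without RK-33 were each fractionated in the same way as 3 lysates, and their fraction effects are set beside that of RK-33 below. The remaining 6 libraries, from cells given both compounds at these doses, only shared the estimate of the spread. To obtain the fractions, nuclei were spun out of a detergent lysate at low speed and the supernatant was spun again at high speed, the pellet being the insoluble fraction. By this procedure the insoluble fraction is defined by sedimentation, so it can hold RNP granules together with any other material that pellets at that speed.

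An mRNA that is being translated carries ribosomes along its coding sequence, and a longer coding sequence can carry more of them. mRNAs released from ribosomes can gather with RNA-binding proteins in stress granules, and repressed or decaying mRNAs in P-bodies, both of which are dense assemblies without a membrane. DDX3X, which RK-33 inhibits, unwinds structured RNA, supports translation initiation and is a stress granule component. mRNAs of secreted and membrane proteins are translated at the endoplasmic reticulum (ER), to which the signal recognition particle brings them, and its RNA part is 7SL RNA, encoded by RN7SL1.

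Exon and intron counts together came to 13937910 to 17167157 in the RK-33 libraries, where a count is a fragment uniquely aligned to the exons or introns of a gene. Soluble replicate 3 stood apart from the other soluble libraries. RN7SL1 took 15.5% of its exon counts, against 8.42% and 9.13% in soluble replicates 1 and 2, and introns took 13.3% of its counts, against 22.6% and 17.8%. Results that rest on this lysate are given below with and without it. Of the bone and mesenchymal markers, 10 of 13 passed the filter, with COL1A1 at 1372 and 1171 CPM in the soluble and insoluble fraction and RUNX2 at 64.1 and 54.5, while COL1A2, BGLAP and TWIST1 did not pass. Of 14 markers of epithelial, blood and endothelial cells, 6 passed, and their summed level was 17.5 to 19.2 CPM in the soluble and 26.5 to 31.0 CPM in the insoluble libraries. Its most abundant member in the insoluble fraction was VWF at 16.3 CPM, and CD3E, HBB, CDH5, ALB and GFAP were under the filter. CPM is the unit of counts scaled by TMM to a common library total, so all values describe the composition of a fraction and not an amount of RNA per cell, and fewer molecules in a fraction cannot be told apart from more of the others.

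After RK-33 treatment, 2734 of the 17666 genes tested were higher in the insoluble fraction, which is 15.5% of them, and 2657 or 15% were lower. A gene was called where edgeR's quasi-likelihood test gave a p, adjusted after Benjamini and Hochberg, under 0.05 and the log2 fold change was 1 or more in size, and the median log2 fold change over all genes tested was -0.01. Among mRNAs, the fold change followed the length of the coding sequence. Long coding sequences were higher in the insoluble fraction and short ones lower, over the whole range of lengths. Coding length was taken from the canonical transcript of each of 13419 protein-coding genes.

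Among the 1563 mRNAs with a coding sequence under 600 nt, 920 were lower in the insoluble fraction and 43 higher, which is 58.9% and 2.75% of them, with a median log2 fold change of -1.21. Of the 3666 mRNAs with 600 to 1200 nt, 932 were lower and 166 higher, at a median of -0.58. The 5014 mRNAs with 1200 to 2400 nt were balanced, with 265 higher, 233 lower and a median of -0.04. In the class of 2400 to 4800 nt, 505 of 2429 mRNAs were higher and 13 lower, with a median of 0.58. Of the 747 mRNAs with a coding sequence of 4800 nt or more, 500 were higher, or 66.9%, and 4 lower, with a median of 1.28. The classes therefore ran in 1 order, and the share of mRNAs called higher in the longest class was above the 15.5% of all genes and that of the shortest class below it. Of the counts, the longest class took 7.92% in soluble and 24.1% in insoluble libraries.

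**Figure D1:**
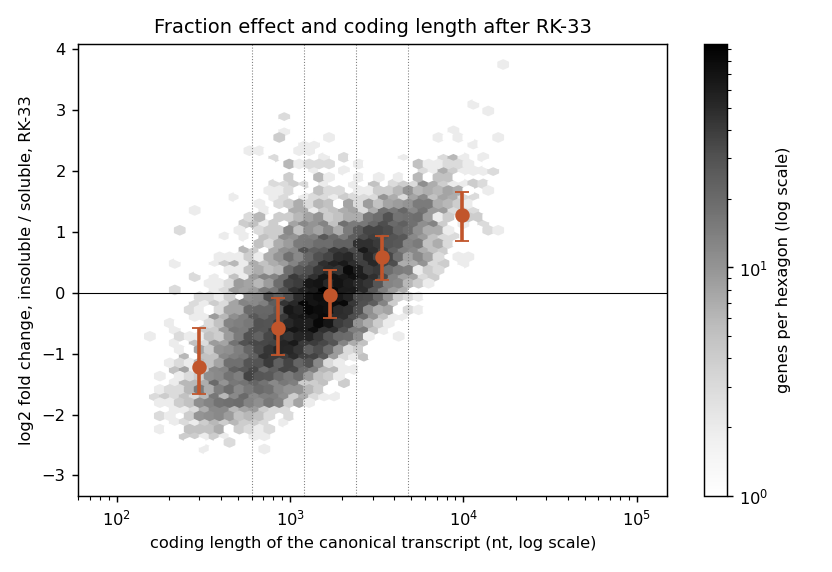
Log2 fold change between the insoluble and soluble fraction after RK-33 (vertical axis) against the coding length in nt (horizontal axis, log scale) for protein-coding genes, as grey hexagons shaded by the number of genes. Points with bars, drawn within each class, are the median and the quartiles of 5 length classes divided by dotted lines, and rise from -1.21 for coding sequences under 600 nt to 1.28 for those of 4800 nt or more.

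Across these genes, which are not independent replicates and share the same 6 libraries, Spearman's correlation of the log2 fold change with the coding length was 0.66. It was 0.28 with the length of the 3′ untranslated region and -0.07 with the GC content of the transcript. mRNAs with 3′ untranslated regions under 500 nt had a median log2 fold change of -0.49, and those with 4000 nt or more a median of 0.29, a smaller range than for coding length. The same order of coding length classes was present in Ctrl, where the medians ran from -1.05 in the shortest to 1.2 in the longest class. In the test of the difference from Ctrl, 0 mRNAs of the shortest class passed, and of the longest class 0 were higher and 2 lower after RK-33. Without replicate 3 of RK-33, 897 mRNAs of the shortest class were lower and 27 higher, and 447 of the longest class were higher and 4 lower. Of these counts, only that of short mRNAs called higher moved by more than 1.5 times.

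A small number of mRNAs went against the order, and they were picked out after their values were seen. Among the 43 short mRNAs that were higher, 6 had a mean of at least 10 CPM, namely C14orf132, CDC42, RBPMS, SHISAL1, IL18BP and CLEC2D. C14orf132, a gene on chromosome 14 from 96039362 to 96093971 with a coding sequence of 249 nt in a transcript of 7627 nt, had 18.2, 21.3 and 17 CPM in the soluble and 62.0, 67.7 and 58.4 CPM in the insoluble libraries, a log2 fold change of 1.74 (SE 0.14, edgeR adjusted p = 2.03e-07). CDC42, a small GTPase that organises the actin cytoskeleton, had a log2 fold change of 1.09, and its annotated canonical transcript is 10503 nt long. The 4 long mRNAs that were lower were NACA, NRXN2, NOTCH4 and MUC3A, and only NACA and NRXN2 had at least 10 CPM. NACA, a subunit of the nascent polypeptide-associated complex, averaged 48.9 ± 4.17 CPM (SD, n = 3) in insoluble and 169.98 ± 5.07 CPM in soluble libraries, a log2 fold change of -1.80. Its canonical transcript has a coding sequence of 6234 nt, but the gene also makes a short isoform, and the counts do not separate the isoforms.

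Very large cytoskeletal and membrane scaffolds lay on the insoluble side. In a list of 39 giant cytoskeletal linkers, 35 were higher in the insoluble fraction and 0 lower, with a median log2 fold change of 2.05 against -0.01 for all genes. AHNAK, a scaffold under the plasma membrane on chromosome 11 from 62433542 to 62556235, had 1259, 1231 and 926 CPM in the 3 soluble libraries and 15630, 17370 and 12660 CPM in the 3 insoluble libraries. The fractions did not overlap, and the log2 fold change was 3.74 (SE 0.20, edgeR adjusted p = 2.16e-08). Its relative AHNAK2, on chromosome 14 from 104937244 to 104978374, rose by a log2 fold change of 3.70, from 108 to 174 CPM in the soluble libraries to 1574 to 2168 CPM in the insoluble ones. FLNA, filamin A, which crosslinks actin filaments, had 3099, 3370 and 3649 CPM in the soluble and 10100, 11510 and 9973 CPM in the insoluble libraries, a log2 fold change of 1.64 (SE 0.19, edgeR adjusted p = 7.1e-06). The lowest member was LMO7, an actin and adhesion protein, at 0.43, which did not reach the limit on the fold change.

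All 30 genes of a list of giant ubiquitin ligases, kinases, signalling scaffolds and other very large proteins were higher, with a median log2 fold change of 2.13. PRKDC, the catalytic subunit of the DNA-dependent protein kinase, had 371, 313 and 243 CPM in the soluble and 2831, 2841 and 2692 CPM in the insoluble libraries, a log2 fold change of 3.20 (SE 0.18, edgeR adjusted p = 3.39e-08). HERC1, a ubiquitin ligase on chromosome 15 from 63608618 to 63833948, had 69.5, 65.1 and 52.4 CPM in the soluble and 517, 530.3 and 494.5 CPM in the insoluble libraries, a log2 fold change of 3.05. TRIO, a guanine nucleotide exchange factor on chromosome 5 from 14143342 to 14532128, had 430.5, 390 and 325 CPM in the soluble and 2071, 2415 and 1994 CPM in the insoluble libraries. In each of these genes the lowest insoluble library lay far above the highest soluble library. RNF213, a ubiquitin ligase, rose by a log2 fold change of 2.64 (SE 0.12) and MDN1, a giant ATPase of ribosome assembly, by 2.86 (SE 0.15), both with an adjusted p of 2.16e-08 (edgeR). UBR4, a further ubiquitin ligase, rose by 2.59 and AKAP13, a kinase anchor, by 2.22. The member with the smallest change was AKAP11, a kinase anchor, at 1.14. VPS13D, a lipid transfer protein from the list of giant cytoskeletal linkers, rose by 2.65. NBPF20, at 3.21, belongs to a family of near-identical copies on chromosome 1 that can share reads, so its value is uncertain.

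Chromatin regulators with long mRNAs were higher in 30 of 52 cases and lower in 0, with a median of 1.10. NSD1, a histone methyltransferase, was the highest at a log2 fold change of 2.17 (SE 0.12, edgeR adjusted p = 2.82e-08). Among 46 spindle and centrosome proteins, 13 were higher and 5 lower, with a median of 0.07. CEP250, a large centrosomal linker, rose by 2.02 and CENPF, a large kinetochore protein, by 1.57. The 5 that were lower were STMN1, a small tubulin-binding protein, at -1.59, and the mitotic regulators AURKA, AURKB, BIRC5 and CDC20 at -1.0 to -1.27. Members of a single functional group thus lay on both sides.

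**Figure D2:**
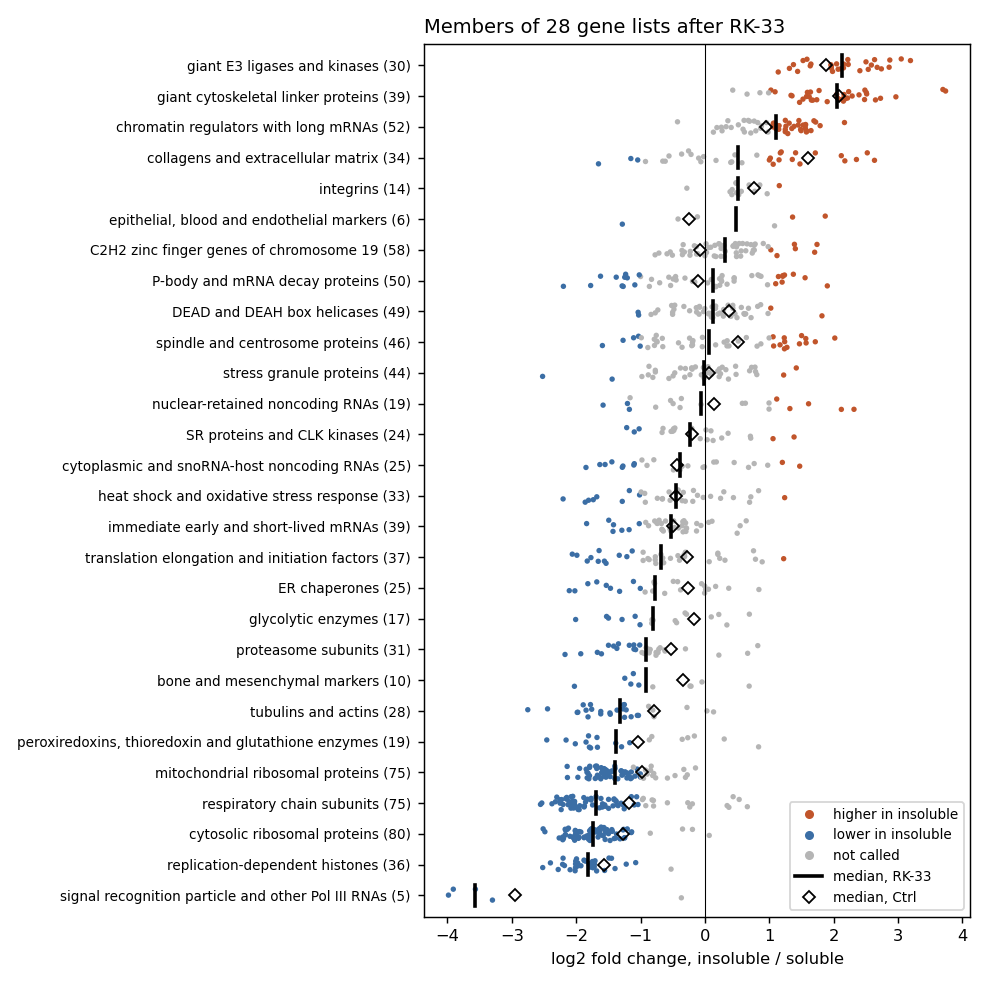
Log2 fold changes between the insoluble and soluble fraction after RK-33 (horizontal axis) for the tested members of 28 gene lists (rows, number tested in brackets), coloured by whether the gene was higher, lower or not called. The bar is the list's median after RK-33 and the diamond its median in Ctrl, and the medians run from -3.57 for the signal recognition particle and other Pol III RNAs to 2.13 for giant E3 ligases and kinases.

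Matrix proteins are secreted and are translated at the ER. Of 34 genes for collagens and other matrix proteins, 15 were higher in the insoluble fraction and 3 lower, with a median log2 fold change of 0.52, while in Ctrl 21 were higher, 0 lower and the median was 1.61. The difference from Ctrl itself passed the test for 1 of the 34, FN1, whose call was lost when any single lysate of RK-33 or Ctrl was left out. FBN2, fibrillin 2, had the highest value of the list at 2.64, from 270, 251 and 201 CPM in the soluble to 1475, 1640 and 1352 CPM in the insoluble libraries. COL12A1, a collagen that binds to fibrils, had 728, 663 and 491 CPM in the soluble and 3155, 3354 and 3010.0 CPM in the insoluble libraries, a log2 fold change of 2.36 (SE 0.18, edgeR adjusted p = 2.07e-07). The 3 mRNAs that fell were TIMP1, an inhibitor of matrix proteases, at -1.65, SPARC, a matrix glycoprotein, at -1.15, and LOX, which crosslinks collagen, at -1.04. TIMP1 had 1056, 1061 and 1158 CPM in the soluble and 366, 351 and 326 CPM in the insoluble libraries. Of 14 integrins, the receptors for matrix, ITGA2 was higher, at 1.16, and 0 were lower, and the median was 0.51.

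Among 25 ER chaperones and translocation proteins, 9 were lower and 0 higher, with a median of -0.78. SEC61B, a small subunit of the translocation channel, fell by 2.11 on the log2 scale and KDELR1, a receptor that retrieves ER proteins, by 2.02. CANX, the membrane chaperone calnexin, was at -0.78, and SEL1L, a part of the ER ubiquitin ligase, at 0.84, neither past the limit on the fold change.

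mRNAs for ribosomal proteins lay on the soluble side. Of 80 genes for cytosolic ribosomal proteins, 76 were lower in the insoluble fraction and 0 higher, with a median log2 fold change of -1.73. Their summed level was 27100, 30400 and 37890 CPM in the 3 soluble libraries and 10630, 8790 and 10320 CPM in the 3 insoluble libraries. Soluble replicate 3, the library with the highest RN7SL1 share, was also the highest here. RPS21, on chromosome 20 from 62387103 to 62388520 and with a coding sequence of 249 nt, had 195, 193 and 232 CPM in the soluble and 48.7, 38.9 and 46.6 CPM in the insoluble libraries, a log2 fold change of -2.21 (SE 0.12, edgeR adjusted p = 2.16e-08). RPS14 had the lowest value of the list at -2.51, and RPS12 was at -2.49. RPLP0, the acidic stalk protein and among the most abundant of these mRNAs, had 1203, 1368 and 1708 CPM in the soluble and 621, 532 and 618 CPM in the insoluble libraries, a log2 fold change of -1.26. RPS10, at 2.25 to 3.88 CPM the lowest-level member, did not pass the test, at 0.07 with an SE of 0.25 (edgeR adjusted p = 0.879), and its sign turned without replicate 3.

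Other mRNAs for small, abundant proteins lay on the same side. Of 75 mitochondrial ribosomal proteins, 58 were lower and 0 higher (median -1.40), and of 75 nuclear-encoded subunits of the respiratory chain, 60 were lower and 0 higher (median -1.69). NDUFS5, a small subunit of complex I, had the lowest value of the respiratory chain at -2.55, and COX5B, a subunit of cytochrome c oxidase, was at -2.13. SDHA, the large flavoprotein of complex II, was at 0.66. Of 31 proteasome subunits, 13 were lower and 0 higher, from PSMB3, a small core subunit, at -2.17 to PSMD2, a large subunit of the regulatory particle, at 0.82. Of 17 glycolytic enzymes, 6 were lower and 0 higher, and GAPDH had 1488, 1725 and 1975 CPM in the soluble and 456, 389 and 440.2 CPM in the insoluble libraries. Of 19 peroxide-reducing enzymes, 12 were lower and 0 higher, from TXN, thioredoxin, at -2.46 to its large reductase TXNRD1 at 0.84.

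Actins, tubulins and their small binding proteins were lower in 22 of 28 cases and higher in 0, with a median of -1.32. ACTB, cytoplasmic actin, had 6569, 7720 and 9949 CPM in the soluble and 2251, 2122 and 2275 CPM in the insoluble libraries, a log2 fold change of -1.85 (SE 0.16, edgeR adjusted p = 4.25e-07). TMSB10, a short actin-binding peptide, had 795, 1010 and 1431 CPM in the soluble and 162, 139 and 168 CPM in the insoluble libraries, a log2 fold change of -2.75. Replication-dependent histones, whose mRNAs end without a poly(A) tail, were lower in 35 of 36 cases, with a median of -1.82. H3C2, a histone H3 gene, fell by 2.52 on the log2 scale, and H3C6 was the exception at -0.53 (edgeR adjusted p = 0.159). Histone genes have many near-identical copies, so the values of single members are uncertain. Further small proteins with a small adjusted p were SNRPD2, a core spliceosomal protein, at -2.55, and PAGE2, a cancer-testis antigen, at -2.29.

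**Figure D3:**
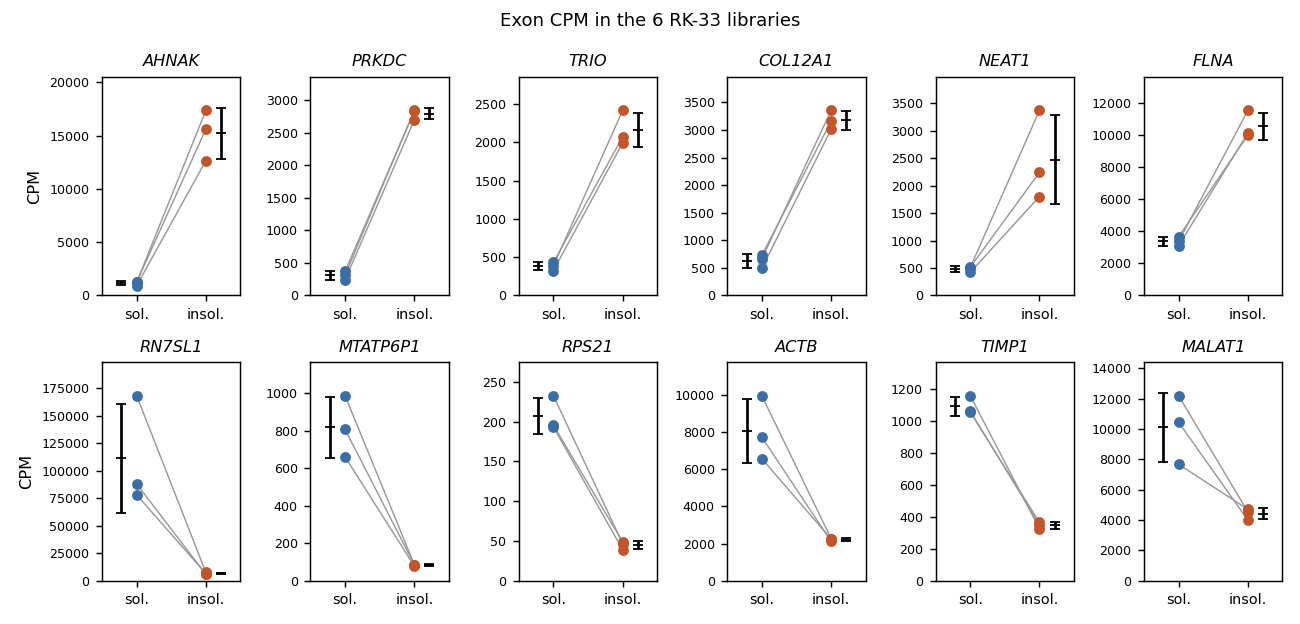
Exon CPM of 12 genes in the 6 RK-33 libraries (vertical axes start at 0), with soluble and insoluble libraries of the same replicate number joined by a line and the mean ± SD (n = 3) beside them. All 12 were picked for display from the genes called higher or lower. They run from AHNAK, higher in the insoluble fraction, to RN7SL1, at 78040 to 168000 CPM in the soluble and 5839 to 7548 CPM in the insoluble fraction.

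Translation factors lay mostly on the soluble side, with a median of -0.68 and 28 of 37 log2 fold changes below 0. Of these 37 initiation and elongation factors, 11 were lower and only EIF4G1, a large scaffold of cap-dependent initiation, was higher, at 1.22 (SE 0.15, edgeR adjusted p = 8.81e-06). EIF3I, a small subunit of eIF3, had the lowest value at -2.06. EEF1A1, the elongation factor that brings tRNA to the ribosome, had 4642, 5540 and 7077 CPM in the soluble and 2766, 2303 and 2736 CPM in the insoluble libraries, a log2 fold change of -1.13.

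The mRNAs that encode the granule proteins themselves were described next. Among 44 stress granule proteins, 2 were higher, EIF4G1 and PRRC2B, and 2 were lower, YBX1 and YBX3, with a median of -0.01, against 15.5% and 15% of all genes. With no fold limit 22 of the 44 passed, as did 10188 of all 17666 genes. YBX1, a cold-shock domain protein, had 967, 1125 and 1199 CPM in the soluble and 199, 159 and 218 CPM in the insoluble libraries, a log2 fold change of -2.52. DDX3X, whose protein is the target of RK-33, had 404, 379 and 323 CPM in the soluble and 413, 378 and 392 CPM in the insoluble libraries, and the fractions overlapped. Its log2 fold change was 0.10 (SE 0.20, edgeR adjusted p = 0.68), with a sign that turned without replicate 3. Of 49 DEAD and DEAH box helicases, SNRNP200, a large spliceosomal helicase, and DHX57 were higher, at 1.82 and 1.02. DDX39A and DDX49 were lower, at -1.04 and -1.03. Both counts were smaller shares than those of all genes.

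Among 50 P-body and mRNA decay proteins, 9 were higher and 11 lower, with a median of 0.13, against 15.5% and 15% of all genes. CNOT1, the scaffold of the deadenylase complex, rose by 1.90 (SE 0.19, edgeR adjusted p = 1.52e-06), and AGO2, the slicing Argonaute, by 1.10. LSM2, a small subunit of the LSM ring that binds deadenylated mRNAs, had the lowest value at -2.20. Of 24 SR proteins and related splicing regulators, SON and OGT were higher, at 1.39 and 1.06. SRSF3, SRSF7 and SRSF9 were lower, at -1.21, -1.02 and -1.10. Both counts were smaller shares than those of all genes. In a list of 58 C2H2 zinc finger genes, all on chromosome 19 except ZNF721 on chromosome 4, 6 were higher and 0 lower, with a median of 0.31. These shares were below the 15.5% and 15% of all genes. The highest value was that of ZNF721, at 1.74, which was 0.82 with exon plus intron counts.

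The 39 immediate early and short-lived mRNAs had 0 higher and 7 lower members, against 15.5% and 15% of all genes. The count of lower members was thus near the share of all genes. Their median was -0.53, and ID3, an inhibitor of basic helix-loop-helix factors, was the lowest at -1.84. Of 33 heat shock and oxidative stress genes, 8 were lower, with HSPB1, a small heat shock protein, the lowest at -2.20, and ASNS, asparagine synthetase, was higher, at 1.24. Among the 10 bone and mesenchymal markers tested, SPARC, ALPL, SPP1, THY1 and S100A4 were lower and 0 were higher. Of the 6 markers of other cell types that could be tested, VWF and KRT5 were higher and EPCAM lower. VWF, the von Willebrand factor, lay between 4.13 and 4.68 CPM in the soluble and between 15 and 18.3 CPM in the insoluble libraries, and KRT5, a keratin, at means of 0.737 and 1.91 CPM. The part of other cell types in the results above was not tested, and all of these markers were at low levels.

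Among noncoding RNAs, RN7SL1 is the 7SL RNA of the signal recognition particle, transcribed by RNA polymerase III from chromosome 14, positions 49586580 to 49586878 of the plus strand (GRCh38). Near-identical copies in the genome share reads with it. RN7SL1 had 78040, 87920 and 168000 CPM in the soluble and 6588, 5839 and 7548 CPM in the insoluble libraries, a log2 fold change of -3.98 (SE 0.56, edgeR adjusted p = 3.29e-05). The fractions were far apart in all 3 lysates, and the soluble level of replicate 3 was well above the other soluble libraries. Over the alternative settings, those without a lysate included, its log2 fold change lay between -4.26 and -3.78. Copies that can share its reads gave similar values, -3.91 for RN7SL3 and -3.57 for RN7SL5P. Outside this family, BCYRN1, a primate RNA of neurons and tumours with an Alu-derived part, was at -3.59, with 24.7, 27.9 and 43.6 CPM in the soluble and 3.00, 2.38 and 2.28 CPM in the insoluble libraries, and RN7SKP203, a copy of 7SK RNA, at -3.76. RMRP, the RNA of RNase MRP, which is also made by RNA polymerase III, was at -0.37, and had 4718, 4888 and 6823 CPM in the soluble and 4247, 4220 and 4110 CPM in the insoluble libraries.

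Of 19 noncoding RNAs known mainly from the nucleus, 5 were called higher in the insoluble fraction, 3 lower and 11 were not called, with a median of -0.06. Of all genes, 15.5% were higher and 15% lower, so the count of lower members was near the share of all genes. MALAT1, a nuclear speckle RNA on chromosome 11 from 65497688 to 65506516, had 12190, 10440 and 7679 CPM in the soluble and 4540, 3998 and 4709 CPM in the insoluble libraries, a log2 fold change of -1.17 (SE 0.16, edgeR adjusted p = 3.54e-05). NEAT1, its neighbour on the same chromosome and the scaffold of paraspeckles, went the other way, with 514, 508 and 421 CPM in the soluble and 2242, 3370 and 1802 CPM in the insoluble libraries, a log2 fold change of 2.32 (SE 0.18, edgeR adjusted p = 2.31e-07). KCNQ1OT1, PVT1, JPX and SNORD3A were also higher, at 2.12, 1.32, 1.12 and 1.61, the call of JPX being lost at 0.73 without replicate 3. The spliceosomal RNAs RNU1-1 and RNU4-1 were lower, at -1.58 and -1.20. Over 15 alternatives each, the calls of RNU4-1, JPX and SNORD3A were lost in 7, 5 and 4. Both fractions held RNAs of this list, and its summed level was 15620 to 18270 CPM in the soluble and 11930 to 12970 CPM in the insoluble libraries. Among 25 spliced noncoding RNAs known from the cytoplasm, 8 were lower and 2 higher, SNHG5 and LINC-PINT. SNHG3, a host of small nucleolar RNAs, fell by 1.85 on the log2 scale. NORAD, which binds Pumilio proteins, had 253, 263 and 265 CPM in the soluble and 257, 249 and 272 CPM in the insoluble libraries, and the fractions overlapped.

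Over whole classes, 27.9% of 2717 lncRNAs were higher and 13.6% lower, and 44.3% of 456 processed pseudogenes were higher and 16% lower, against 11% and 15.7% of 13441 protein-coding genes. The largest log2 fold change of all genes with at least 10 CPM, 5.07, was that of an unnamed miRNA gene, ENSG00000277437, on chromosome 21, whose entry is 61 nt long. It had 1.16, 0.489 and 0.180 CPM in the soluble and 13.8, 17.9 and 36.9 CPM in the insoluble libraries. Its mean reached 10 CPM only through the insoluble libraries, where it was high, so its rank by fold change depends on that limit. In the NaAsO2 insoluble libraries it had 16.2, 8.35 and 248.5 CPM, and its level is thus uncertain. MTATP6P1, a nuclear copy of a mitochondrial gene on chromosome 1 from 633696 to 634376, had 988, 808 and 661 CPM in the soluble and 86.9, 87.0 and 79.0 CPM in the insoluble libraries, a log2 fold change of -3.26 (SE 0.17, edgeR adjusted p = 2.16e-08). It is nearly identical to a mitochondrial gene, and all 37 mitochondrial genes have 0 counts in the table, so the origin of its reads is uncertain.

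Introns were counted separately from exons and described on 2 scales. Relative to all intron counts, 1872 of 17406 genes were higher in the insoluble fraction, or 10.8%, and 2543 were lower, or 14.6%, with a median log2 fold change of -0.08. Relative to the exon counts of the same library, 6577 genes were higher, or 37.8%, and 587 lower, or 3.37%, with a median of 0.78. With the totals of the intron table as the scaling and no TMM factors, 679 were higher and 4961 lower, with a median of -0.55. The share of counts on introns, by which the scales differ, rose from the soluble to the insoluble fraction in all 3 lysates, by 12.5 to 21.5 percentage points (mean 17.9 ± 4.74, SD, n = 3, exact sign-flip permutation test, p = 0.25, two-sided and the smallest p that 3 lysates allow). The smallest of these differences was that of replicate 1.

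Genes with long introns lay on the insoluble side. Of 1025 genes with 300 kb or more of intron, 539 were higher and 29 lower relative to all intron counts, with a median of 1.06. Of 1958 genes with under 5 kb of intron, 87 were higher and 651 lower, with a median of -0.78. Relative to exon counts, the medians of these classes were 1.92 and 0.08, so that the classes kept their order while the level of both shifted. In Ctrl, the medians relative to intron counts were 0.85 and -0.72.

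The introns of CDH4, R-cadherin, on chromosome 20 from 61252571 to 61936736 with 668634 nt of intron, had 275, 260 and 253 intron CPM in the soluble and 1189, 1475 and 1204 intron CPM in the insoluble libraries, a log2 fold change of 2.29 (SE 0.15, edgeR adjusted p = 2.95e-09). Those of SH3RF3, a scaffold of JNK signalling, rose by 1.97, of ZC3H12B, an endoribonuclease, by 2.43, and of TRAPPC9, a vesicle tethering factor, by 1.83. The introns of STAM, an endosomal sorting protein on chromosome 10 from 17644380 to 17714542, were lower, with 743, 838 and 1000 intron CPM in the soluble and 141, 128 and 147 intron CPM in the insoluble libraries, a log2 fold change of -2.62 (SE 0.16, edgeR adjusted p = 1.12e-09). Those of SF3B4, a splicing factor, were at -3.37, of TUBA4A, a tubulin, at -3.60, and of RPL23A, a ribosomal protein whose introns span 1380 nt, at -2.83. On the exon scale these 4 genes were also lower, at -1.75, -2.51, -2.73 and -1.96. Of the 13116 genes tested on both exons and introns, 529 were higher on both, 698 lower on both, and 31 opposite, and Spearman's correlation of the 2 log2 fold changes was 0.58.

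**Figure D4:**
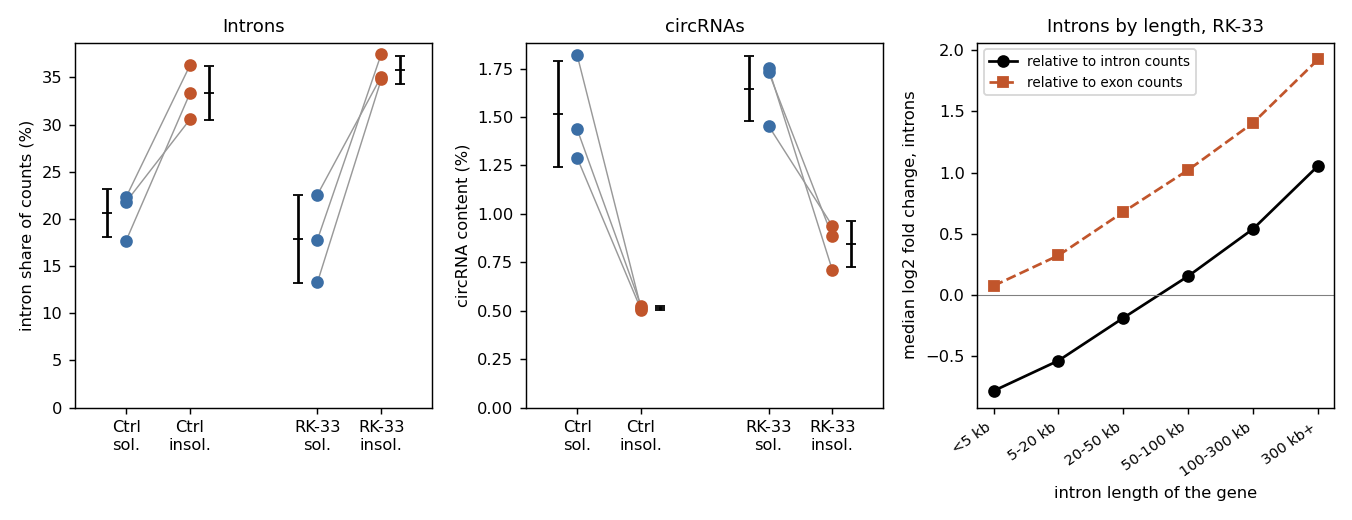
Intron share of the counts (%, left) and circRNA content (%, middle) in each Ctrl and RK-33 library, with fractions of the same replicate number joined and mean ± SD (n = 3) beside them, and the median log2 fold change of introns after RK-33 by intron length of the gene (right), relative to intron or to exon counts. The intron share is higher and the circRNA content lower in the insoluble fraction of all 3 RK-33 lysates, and the medians at the right rise from -0.78 to 1.06 relative to intron counts.

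A circRNA is a closed ring made when the end of an exon is spliced back to the start of an earlier exon, so it lacks the ends where decay begins, and it is counted by reads across this back-splice junction. The circRNA content, back-splice counts as a share of back-splice plus linear counts at the same sites, was 1.45%, 1.75% and 1.73% in the soluble and 0.938%, 0.710% and 0.883% in the insoluble libraries. In each lysate the insoluble fraction had the lower content, and the log2 ratio had a mean of -0.97 ± 0.34 (SD, n = 3, exact sign-flip permutation test, p = 0.25, two-sided and the smallest p possible). Soluble libraries held 895 to 1233 back-splice counts and insoluble libraries 334 to 489.

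Of 237 circRNAs with at least 24 counts over the series, 13 were lower in the insoluble fraction, or 5.49%, and 1 was higher, or 0.422%, with edgeR at an adjusted p under 0.05 and library sizes from all exon and intron counts. The log2 fold change was negative for 211 of them, and its median was -1.69. Without replicate 2 of RK-33, 8 passed, and without replicate 3, 5 passed. With TMM factors from the back-splice counts, 3 were higher and 5 lower. The junctions of 4 circRNAs are shown because they mark what was counted, with the last 15 bases before the back-splice in lower case and the first 15 bases after it in capitals, read 5′ to 3′ from GRCh38. The genomic span of a circRNA is given as the position of its outer ends, and all 4 junctions lie between AG before and GT after the joined exons.
LRBA: gatgataacataagaGCTGTTGAAGCTCAA
MPP6: gaactacggtgccatCAGCAATGCAGCAAG
SEPTIN9: cccggagccaggaggCCTTGAAAAGATCTT
MAN1A2: ctatcaggagaggagGGAAGAGGAAGAACG

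The LRBA circRNA, from exons on chromosome 4 between 150282450 and 150325898, was the only circRNA called higher in the insoluble fraction. It had 9, 5 and 2 back-splice counts in the soluble and 48, 35 and 45 in the insoluble libraries, a log2 fold change of 2.95 (SE 0.75, edgeR adjusted p = 0.00318). Its adjusted p lay between 5.75e-05 and 0.159 over 7 alternatives and was above 0.05 in 2 of them, which were those without RK-33 replicate 2 and without replicate 3. Linear reads at the same sites went in the same direction, with 14, 15 and 6 counts in the soluble and 91, 55 and 87 in the insoluble libraries, and the exon counts of LRBA, a giant scaffold of vesicle traffic, rose by a log2 fold change of 2.68 (SE 0.18, edgeR adjusted p = 5.84e-08).

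Among the circRNAs that were lower, an MPP6 circRNA, on chromosome 7 from 24623663 to 24668660, had 8, 14 and 3 back-splice counts in the soluble and 0 in each insoluble library (edgeR adjusted p = 0.00074). The linear reads at these sites were 40, 56 and 47 in the soluble and 25, 19 and 25 in the insoluble libraries, so the linear form was detected in both fractions. An MPP6 circRNA with the same end, starting at 24623666, had 5, 17 and 9 counts in the soluble and 3, 3 and 2 in the insoluble libraries. It was not called (edgeR adjusted p = 0.0999), so circRNAs of MPP6 were not absent from the insoluble fraction. The SEPTIN9 circRNA, on chromosome 17 from 77402059 to 77402703, had 14, 15 and 12 counts in the soluble and 0, 0 and 3 in the insoluble libraries. A MAN1A2 circRNA, on chromosome 1 from 117402186 to 117420649, had 9, 11 and 11 counts in the soluble and 0, 0 and 1 in the insoluble libraries. Its linear reads were balanced, with 73, 87 and 60 counts against 92, 71 and 75. Another with the same start, ending at 117442325, had 10, 11 and 6 counts against 4, 0 and 2 and was not called (edgeR adjusted p = 0.0566). With so few counts in the insoluble fraction, the values of the called circRNAs show a lower level but not how low it was.

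The fraction effect of RK-33 was next compared with that of Ctrl, where 2010 genes or 11.4% were higher and 1868 or 10.6% lower in the insoluble fraction. These comparisons share no library. Of the genes called higher after RK-33, 59.0% were also called higher in Ctrl, and of those called lower 58.7% were also called lower, with 0 called in the opposite direction. These genes were 80.3% and 83.5% of the Ctrl calls. Across genes, Spearman's correlation of the 2 log2 fold changes was 0.90.

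When the difference of the 2 fraction effects was tested for each gene, 39 of 17666 genes, or 0.221%, had a lower log2 fold change after RK-33 and 0 or 0.0% a higher one. Without an adjustment of p, 2266 genes were under 0.05, 1378 of them lower and 888 higher. edgeR's likelihood ratio test called 74 lower and 18 higher, and DESeq2 78 lower and 3 higher. With library size alone as the scaling, which moved the median difference of all genes by 0.14 on the log2 scale, 20 were lower and 3 higher. In place of 39 calls there were 6 without RK-33 replicate 1 and 1 without any other single lysate of RK-33 or Ctrl. All 39 had at least 10 CPM, 38 encode proteins, and 36 have a coding sequence of 1200 to 4800 nt. Their median log2 fold change was -0.51 after RK-33 against 0.67 in Ctrl. The value was above 0 for 32 of them in Ctrl, where 12 were called higher and 1 lower, and below 0 for 29 after RK-33, where 10 were called lower and 2 higher. The median log2 ratio of RK-33 to Ctrl was 0.43 for soluble and -0.78 for insoluble libraries, which describes the values that chose these genes.

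TKT, transketolase of the pentose phosphate pathway, had 126, 155 and 148 CPM in the soluble and 141, 150 and 149 CPM in the insoluble libraries of Ctrl, and 161, 192 and 218 CPM in the soluble and 77.4, 75.8 and 71.9 CPM in the insoluble libraries after RK-33, a difference of -1.37 (SE 0.17, edgeR adjusted p = 0.00712).

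EEF2, the elongation factor that moves the ribosome along the mRNA, went from 863, 1077 and 989 CPM in the soluble and 1402, 1602 and 1750 CPM in the insoluble libraries of Ctrl to 1265, 1545 and 1752 CPM and 934, 928 and 956 CPM after RK-33, a difference of -1.38. COPG1, a coat subunit of Golgi vesicles, TARS1, a tRNA synthetase, and ADGRE5, an adhesion receptor, had differences of -1.25, -1.26 and -1.26. ACTN4, an actin crosslinker, differed by -1.22. Among the helicases and granule proteins, DHX9, DDX1 and SND1 differed by -1.27, -1.04 and -1.11 and were picked out after their values were seen. With exon plus intron counts SND1 differed by -0.24 (edgeR adjusted p = 0.802). FN1, fibronectin, stayed on the insoluble side but less so, with 792 to 883 CPM in the soluble and 4129 to 5108 CPM in the insoluble libraries of Ctrl and 1279 to 1432 and 2736 to 3072 CPM after RK-33, a difference of -1.33 (SE 0.24, edgeR adjusted p = 0.0295).

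**Figure D5:**
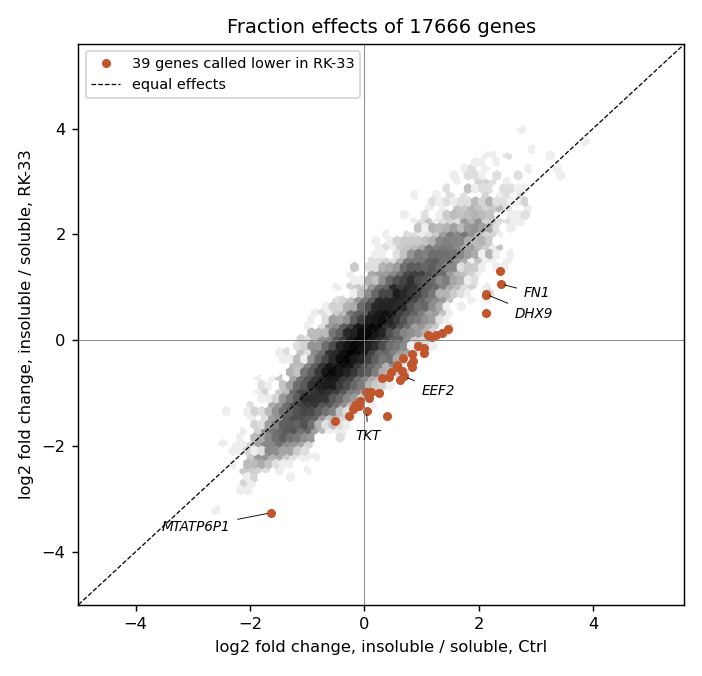
Log2 fold change between the insoluble and soluble fraction in Ctrl (horizontal axis) and after RK-33 (vertical axis) for 17666 genes, as grey hexagons shaded by the number of genes on a log scale, with the line of equal effects dashed. Orange points are the 39 genes whose fraction effect was lower after RK-33, with 5 of them named, and most of them lie to the right of 0 in Ctrl and below 0 after RK-33.

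The fraction effect of NaAsO2 alone, in which 2303 genes or 13% were higher and 2935 or 16.6% lower, differed more from that of RK-33. Relative to NaAsO2, 303 genes or 1.72% had a higher and 254 or 1.44% a lower log2 fold change after RK-33. With RLE factors as the scaling 240 were higher and 339 lower, and with library size alone 146 were higher and 235 lower, so the balance of directions depended on the scaling. NaAsO2 insoluble replicate 3 stood apart from its group, and without this lysate 190 were higher and 103 lower. Without RK-33 replicate 1, 2 or 3, the total of 557 fell to 53, 185 and 75, and without NaAsO2 replicate 1 it rose to 1933. The count therefore rests on single lysates.

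Short-lived mRNAs were among those that differed from NaAsO2. Of the 39 immediate early and short-lived mRNAs, 17 had a lower log2 fold change after RK-33 and 0 a higher one. The list's median log2 fold change was -0.53 after RK-33, -0.50 in Ctrl and 0.37 after NaAsO2. Without RK-33 replicate 1 or 3, 9 of them passed, and without NaAsO2 replicate 3, 10. IER3, an immediate early survival gene on chromosome 6 from 30743199 to 30744548, had 91.9, 107 and 146 CPM in the soluble and 45.3, 46.8 and 46.3 CPM in the insoluble libraries after RK-33, and 92.6, 88.4 and 97.6 CPM in the soluble and 164, 140 and 252 CPM in the insoluble libraries after NaAsO2. The soluble levels overlapped and the insoluble levels did not, and the difference was -2.24 (SE 0.23, edgeR adjusted p = 0.00038). CCN1, a secreted matricellular protein, differed by -1.61, ID1 by -2.0, NFKBIA, the inhibitor of NF-kappaB, by -1.44, and EGR1, a zinc finger factor, by -1.22.

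ZFP36L1, which binds AU-rich elements and leads their mRNAs to decay, had 384, 398 and 456 CPM in the soluble and 229, 218 and 232 CPM in the insoluble libraries after RK-33, against 402, 378 and 400.1 CPM and 738, 663 and 765 CPM after NaAsO2, a difference of -1.74 (SE 0.15, edgeR adjusted p = 0.000102). NORAD, balanced after RK-33, had 178, 188 and 170 CPM in the soluble and 577, 589 and 725 CPM in the insoluble libraries after NaAsO2. Its log2 fold change was thus lower after RK-33, a difference of -1.82. In the other direction, HSPE1, a mitochondrial chaperonin, was at 22.4, 18.5 and 23.2 CPM in the insoluble libraries after RK-33 and at 8.11, 9.69 and 8.78 after NaAsO2, a difference of 1.14 (SE 0.20, edgeR adjusted p = 0.0143), with soluble levels of 47.7 to 48.2 and 39.7 to 46.5 CPM. TAF1D, a subunit of the RNA polymerase I factor SL1, differed by 1.15, and RSRC1, a splicing regulator, by 1.78.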

How the data were processed

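RNA-seq libraries of the soluble and insoluble cytoplasm of U2OS cells were analysed. The authors deposited counts per gene for exons and introns, as fragments assigned by gene name without strand, and counts of back-splice and linear reads for circRNAs. Per the submitters' processing notes, reads were aligned with STAR 2.7.2b and counted with featureCounts 1.5.3 on GENCODE release 40, intron fragments needing an overlap of 25 nt. SAMtools 1.2 is also listed there. Overlapping and antisense genes and near-identical copies, such as those of RN7SL1, cannot be told apart. circRNAs were called from back-splice reads with DCC, per the study's methods.

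Genes whose mean over all libraries reached 1 CPM were scaled by TMM and tested with edgeR 4.0.16 in R 4.3.3 (quasi-likelihood test) over all 24 libraries, with each of 12 lysates as a block and a fraction effect per treatment, leaving 8 residual degrees of freedom. Per the study's methods the experiment was done 3 times, and p-values measure the spread between these lysates. The block follows from the design, since each lysate was split into both fractions. That fractions with the same replicate number share a lysate was taken from the numbering. Correlations of deviations between fractions of the same replicate number were 0.026, -0.12 and 0.063 for RK-33. They were 0.207, 0.338 and 0.101 for Ctrl, and 0.054, -0.003 and 0.115 for NaAsO2. With both compounds they were -0.093, -0.067 and -0.313, so the values do not show the pairing in every treatment. circRNAs with at least 24 counts were tested with exon plus intron totals as library sizes. Benjamini-Hochberg adjusted p-values are over all features tested. Split entries were rejoined for 1 gene of the exon table and 21 genes of the intron table. Alternatives included DESeq2 1.42.0, other scalings and filters, and leaving out each lysate. Python 3.11.15, pandas 2.3.3, numpy 2.4.6, scipy 1.17.1 and matplotlib 3.10.9 were used for the rest. Gene coordinates are those deposited with the exon and intron counts, and circRNA positions those deposited with the back-splice counts. Gene classes, transcript and coding lengths and GC content were read from GENCODE release 44, and junction sequences from GRCh38. Depth limits the precision of low counts, and intervals from counts would cover counting error only.

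Genes named by rule passed both thresholds, averaged 10 CPM or more and had 1 of the 10 smallest adjusted p or 5 largest changes in a direction, or were the 2 most abundant, the highest or the lowest member of a list. NORAD, DDX3X and RN7SL1 were always named, and introns, differences and circRNAs followed similar rules with 5, 5 and 3 in each direction. Some items are not reported here. Other named genes are members of small counts or were picked out after their values were seen. The comparison, the 28 lists and the length classes were chosen with earlier results of these data known.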

Additional observations from a re-analysis of the deposited data

Results flagged for a closer look

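The fraction effect of RK-33 differed from that of Ctrl for 39 genes and from that of NaAsO2 for 557 genes, as tested by the difference of the effects in edgeR's model over all libraries. No explanation was tested for these differences, and both counts rest on single lysates, as given with the comparisons above.

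Among the genes named for the comparison with Ctrl, the differences on the log2 scale were negative throughout. They were -1.62 for MTATP6P1, -1.38 for EEF2, -1.37 for TKT and -1.33 for FN1. Smaller differences were those of DHX9 at -1.27, ADGRE5 and TARS1 at -1.26, COPG1 at -1.25, ACTN4 at -1.22, SND1 at -1.11 and DDX1 at -1.04.

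In the comparison with NaAsO2, 17 of 39 immediate early and short-lived genes were lower after RK-33, a count that fell to 9 without RK-33 replicate 1 or 3 and to 10 without NaAsO2 replicate 3. Their differences included -2.24 for IER3, -2.0 for ID1, -1.61 for CCN1, -1.44 for NFKBIA, -1.32 for ID3, which was at -0.86 without NaAsO2 replicate 3, and -1.22 for EGR1. Further genes with a lower effect were NORAD at -1.82, ZFP36L1 at -1.74, LRRC58 at -1.67, MTATP6P1 at -1.34 and AHNAK2 and CEP250 at -1.17. A higher effect after RK-33 was found for RSRC1 at 1.78, ASNS at 1.72, ULK4 at 1.43, RBPMS at 1.29, TAF1D at 1.15, HSPE1 at 1.14, NACA and PVT1 at 1.07 and CC2D2A at 1.03. ASNS had low means of 2.09 to 7.44 CPM in the groups compared, and its call was lost in 7 of 15 alternatives. That of CC2D2A was lost in 8 of 16. Of these genes, MTATP6P1 differed from both Ctrl and NaAsO2.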

How the results depend on the processing

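The 5391 calls of the exon counts became 10188 with no fold limit, 891 at a log2 limit of 2 and 2701 for genes that averaged 10 CPM or more, and without the replicate block 5425 passed. Without 1 lysate they numbered 4578 to 5599. The 39 calls against Ctrl became 91 with no fold limit, 0 at a log2 limit of 2, 23 with library size alone, 92 with the likelihood ratio test, 81 with DESeq2, 117 with no filter and 1 with exon plus intron counts. Without the block for the pairing, 77 passed (13 higher, 64 lower), and without 1 lysate 1 to 6 did. The 557 calls against NaAsO2 became 1090 with no fold limit, 70 at a log2 limit of 2, 1225 with the likelihood ratio test, 950 with DESeq2, 1488 with no filter, 1388 with exon plus intron counts, 974 without the block (468 higher, 506 lower), and 53 to 1933 without 1 lysate. The intron calls became 7968 with no fold limit, 905 at a log2 limit of 2, 7164 with the effective library sizes of the exon table and 2347 for genes that averaged 10 CPM or more, and without the block 4511 passed. Without 1 lysate they numbered 3417 to 4246. The 14 circRNA calls became 8 with TMM on the back-splice counts, 63 with the likelihood ratio test and 38 without the block for the pairing (3 higher, 35 lower), and numbered 5 to 10 without 1 lysate. The circRNA content ratio was -1.45 on the log2 scale with a denominator of exon plus intron counts, -1.32 for exon-exon circRNAs and -1.14 to -0.80 without 1 lysate, and the intron share differed by 16.1 to 20.6 points without 1 lysate. The sign turned for genes near 0. RPS10 was at -0.073 with no filter, -0.20 with exon plus intron counts and -0.15 to 0.19 without 1 lysate, and DDX3X at -0.039, -0.16 and -0.026 to 0.15. NORAD was at 0.013 with RLE factors and with DESeq2, 0.044 with library size alone and 0.084 for genes that averaged 10 CPM or more, MRPS27 at 0.091 and RUNX2 at 0.42 with exon plus intron counts. Among the lists, the calls with no fold limit were 30 for translation factors, 29 for proteasome subunits, 11 for glycolytic enzymes, 8 for integrins, 18 for ER chaperones, 47 for chromatin regulators, 34 for spindle proteins, 22 for stress granule proteins, 36 for P-body proteins, 26 for helicases, 14 for nuclear and 17 for cytoplasmic noncoding RNAs, 25 for zinc finger genes, 15 for SR proteins, 27 for short-lived mRNAs and 22 for heat shock genes. At a log2 limit of 2 they were 20 for cytosolic and 2 for mitochondrial ribosomal proteins, 26 for the respiratory chain, 20 for cytoskeletal linkers, 18 for ligases and kinases, 11 for histones, 5 for matrix proteins, 3 for peroxide-reducing enzymes, 2 each for ER chaperones, actins and tubulins and nuclear RNAs, and 0 or 1 for the others except the Pol III RNAs, which kept their count. With genes that averaged 10 CPM or more they were 3 for glycolytic enzymes, 3 for bone markers, 1 for other cell types and 18 for P-body proteins (10 higher, 8 lower). Stress granule proteins had 7 with no filter, integrins 2 with library size alone and zinc finger genes 3 with exon plus intron counts. Without 1 lysate, calls ranged from 2 to 4 for helicases, 3 to 4 for bone markers and 3 to 5 for SR proteins, each lowest without replicate 3, from 5 to 8 for nuclear RNAs, lowest without replicate 2 or 3, and from 1 to 2 for integrins, highest without replicate 1 or 2. Of 1953 exon values of single genes under alternatives, 1803 kept their direction and their side of the threshold. The cause of these changes was not tested. Depth limits the circRNAs, with 334 to 1233 back-splice counts a library.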
